A study of Mus musculus with 8 samples.

Results

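The unfolded protein response of the endoplasmic reticulum (ER) was followed through 10 genes in RNA-seq of primary mouse hepatocytes. The 10 genes were taken from a fixed list of symbols, matched to Ensembl identifiers by the GENCODE M21 annotation of GRCm38. They are 10 of 55450 gene rows, and all 10 were among the 15468 genes with enough reads to be tested. Hepatocytes came from C57BL/6 mice of 8 weeks. LSKO cells were homozygous for Alb-cre and carried both floxed alleles of Slc39a8, which encodes the metal and selenite transporter Zip8. WT cells carried the same floxed alleles without Cre, so every library had the floxed gene. LSKO cells were given sodium selenite, manganese chloride (MnCl2), ferrous chloride (FeCl2) or zinc chloride (ZnCl2), each at 2 µM for 24 h with 1 library a metal. Untreated LSKO cells and untreated WT cells had 2 libraries each, and all cells were kept in serum-free medium with 10 µM dexamethasone. The albumin promoter drives Cre in hepatocytes, so other liver cells left in a culture keep the gene. Whether libraries came from separate mice is not stated, so p-values measure the spread between libraries, which may be technical.

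The ER folds secreted and membrane proteins, and hepatocytes make large amounts of such proteins for the plasma. When unfolded proteins build up, the membrane sensors IRE1 (gene Ern1), ATF6 and PERK (gene Eif2ak3) become active. IRE1 cuts a short intron out of the Xbp1 mRNA, ATF6 is cut loose in the Golgi, and PERK slows translation and lets ATF4 be made. The factors XBP1 and ATF6 raise the genes of chaperones, disulfide isomerases and the machinery that sends misfolded proteins to the proteasome. The chaperone BiP (gene Hspa5) binds unfolded chains and also holds the sensors inactive, so its mRNA is the usual readout of the response.

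Binding elements of this response were searched on both strands of RefSeq promoter windows (GRCm38.p6) that run from 250 bases before to 50 bases after a start site. Windows were matched by symbol for 9 of the 10 genes, all but Atf6. The ER stress element ERSE, searched as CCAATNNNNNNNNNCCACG, was found in 37 of 27025 genes with a window (0.137%) and in 3 of the 9 genes, which were Hspa5, Calr and Hsp90b1. The related ERSE-II, searched as ATTGGNCCACG, was found in 12 genes (0.0444%), among them Herpud1. The element UPRE, searched as TGACGTGG, was found in 193 genes (0.714%) and in none of the 9. All 3 elements share the letters CCACG on one of their strands. A match is a description of the letters and no test of binding. The sequences below are shown because their genes are compared in every library, with the element in capitals and the gene's own strand read from 5′ to 3′. The Hspa5 element begins 65 bases, the Calr element 162, the Hsp90b1 elements 212 and 107, and the Herpud1 element 52 bases before the RefSeq start site. In GENCODE the Hspa5 gene starts at chr2:34771970, upstream of its element. There 1 annotated exon overlaps the stretch around the element, so fewer bases are shown beside it.
Hspa5, chr2:34772020-34772048, plus strand: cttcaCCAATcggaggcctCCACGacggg
Calr, chr8:84847060-84847108, minus strand: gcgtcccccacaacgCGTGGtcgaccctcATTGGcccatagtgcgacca
Hsp90b1, chr10:86705623-86705671, minus strand: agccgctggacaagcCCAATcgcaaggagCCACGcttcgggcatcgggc
Hsp90b1, chr10:86705518-86705566, minus strand: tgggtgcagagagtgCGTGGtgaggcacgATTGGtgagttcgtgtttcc
Herpud1, chr8:94386362-94386402, plus strand: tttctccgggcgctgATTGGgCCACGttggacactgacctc

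The stretch that IRE1 removes from the Xbp1 mRNA lies in exon 4 of transcript Xbp1-201 at chr11:5524279-5524304 (GRCm38). It is printed because the counts of this report cannot see it being removed. The 26 removed bases are in capitals, with a few bases of the exon on each side, and the stretch as printed is chr11:5524261-5524322 on the plus strand.
Xbp1: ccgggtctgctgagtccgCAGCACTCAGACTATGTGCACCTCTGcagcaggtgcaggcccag
Of 4 annotated Xbp1 transcripts, 3 hold these bases and 0 join the exon across them. The deposited values are sums over all transcripts of a gene, so spliced and unspliced Xbp1 mRNA are counted together.

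Reads in genes numbered between 19943899 and 27731054 a library. Slc39a8 had 30 reads with selenite, 75 with manganese, 47 with iron, 45 with zinc, 185 and 51 in untreated LSKO cells, and 367 and 356 in WT cells, so LSKO replicate 1 kept more of the deleted gene than the other 5 LSKO libraries. In the manganese library, which stood apart, genes took 72.2% of the reads and 4.48% lay in no gene, while in the others genes took 39.3% to 42.1% and 42.3% to 45.6% lay in no gene. Unaligned reads made up 8.79% to 10.0% in the manganese and untreated LSKO libraries and 4.12% to 4.94% in the selenite, iron, zinc and WT libraries. Groups and these 2 kinds of library cannot be told apart in any comparison with untreated LSKO cells except that of manganese, so values against WT cells, or between metals, are given beside many of the results they touch. Manganese itself cannot be told apart from the different share of reads in genes in its library, in any comparison. B cell and plasma cell markers, whose cells are rich in ER chaperones, summed to at most 0.249 normalized CPM in any library. In RNA of whole cultures, fewer cells of a type and less RNA per cell cannot be told apart.

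Levels are given as normalized CPM (counts scaled to a common library size by TMM factors), and between genes only per kb of exon. Per kb, Hspa5 had the highest level of the 10, with a mean of 768 normalized CPM per kb over 8 libraries (701 to 1040). The calcium-binding lectin chaperone Calr had 281 (243 to 319), and Hsp90b1, the ER form of the HSP90 chaperone, had 194 (130 to 248). Below these, a group of genes lay close together, with means per kb of 78.3 for Herpud1, 78.1 for Pdia4, 70.1 for Dnajb9 and 69.5 for Xbp1, and with ranges that overlapped. Below them came Sdf2l1 with 43.0 (34.6 to 63.9), Atf6 with 20.0 (17.1 to 24.4) and Ern1 with 6.69 (3.34 to 8.57). Both sensors thus stood lowest per kb in the 8 libraries, and the ranges of Sdf2l1, Atf6 and Ern1 did not overlap one another. The range of Hspa5 lay above that of Calr, while Calr and Hsp90b1 overlapped.

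**Figure D1:**
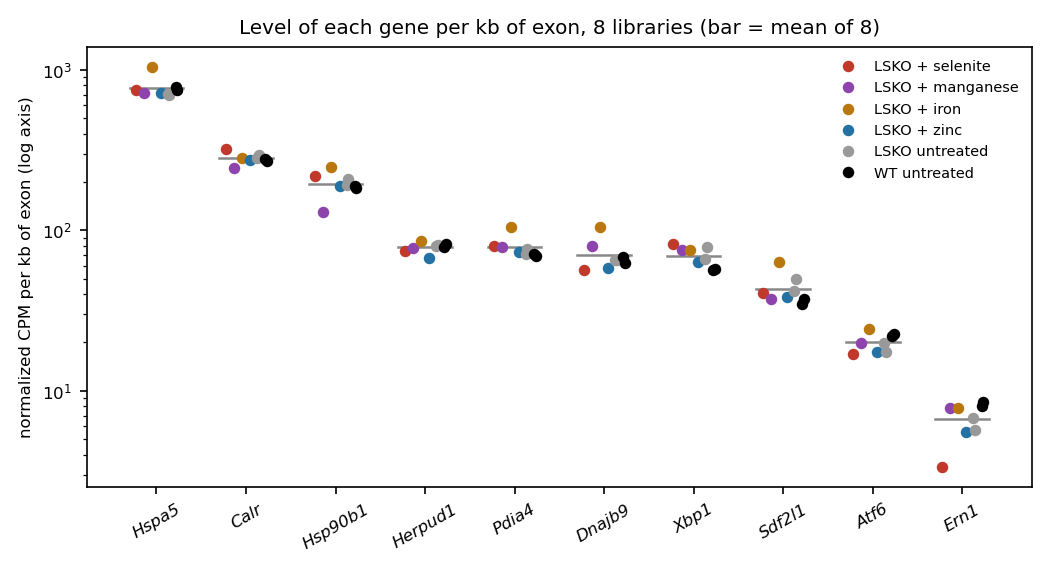
Level of each of the 10 genes in normalized CPM per kb of exon, on a log axis, with 1 point a library and a bar at the mean of the 8 libraries. Hspa5 is highest with a mean of 768 and Ern1 lowest with 6.69, and the iron point is the top one for 7 genes.

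The 10 genes did not move as a block. Of the 10, 7 had their highest level in the iron library, and all 7 lay above each of the 4 untreated libraries there: Atf6, Hspa5, Hsp90b1, Dnajb9, Sdf2l1, Pdia4 and Herpud1. Over the 9134 tested genes whose mean reached 10 normalized CPM, 23.2% were highest with iron. The selenite library was highest for Xbp1 and Calr and lowest for Ern1, Atf6 and Dnajb9. Of the 9134 genes, 29.8% were highest and 26.3% lowest with selenite. The manganese library was lowest for Hsp90b1 and Calr, and the zinc library for Herpud1, where 18.4% and 6.26% of the 9134 genes were lowest. Summed over the 10 genes, the level was 5944 normalized CPM with selenite, 5372 with manganese, 7526 with iron and 5533 with zinc, against 5590 and 5707 in untreated LSKO cells and 5864 and 5682 in WT cells. The highest library had 2.57 times the lowest for Ern1, the widest span of the 10, and 1.27 times for Herpud1, the narrowest. The median span of the 9134 genes was 1.52, and 4 of the 10 genes exceeded it.

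**Figure D2:**
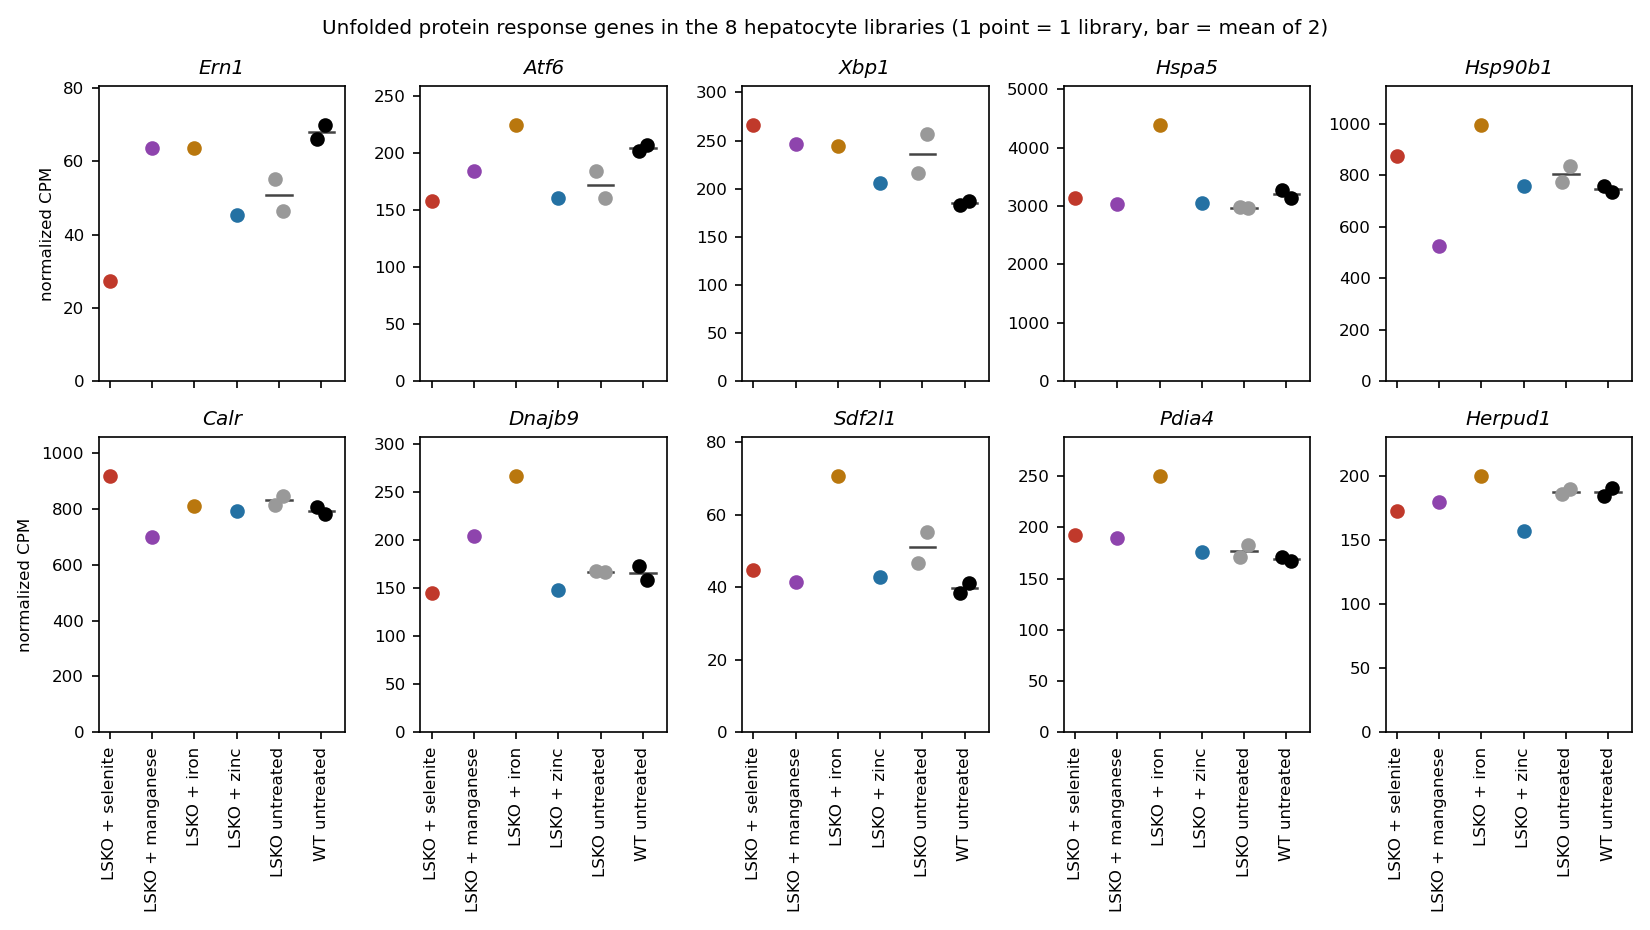
Normalized CPM of the 10 genes in each library, with 1 point a library, bars at the means of the untreated LSKO and WT pairs, and axes that start at 0. The iron point stands above all others for Hspa5 (4398), Dnajb9 (267), Sdf2l1 (70.8) and Pdia4 (250.4), the selenite point below all others for Ern1 (27.3), and the manganese point below all others for Hsp90b1 (525).

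Each metal was compared with untreated LSKO cells, and untreated LSKO with WT cells, by edgeR's quasi-likelihood test in 1 fit over the 8 libraries. A gene was called where its Benjamini-Hochberg adjusted p over all genes tested was under 0.05 and its log2 fold change lay beyond 0.5 in size. A metal with 1 library was taken to vary like the untreated pairs, and the 4 metal comparisons share the 2 untreated LSKO libraries. With iron, 3 of the 10 genes were called higher (Hspa5, Dnajb9 and Pdia4) and 0 lower, where 3.8% of all genes tested were called higher and 4.89% lower. An unadjusted p under 0.05 was reached by 7 higher genes and by 0 lower genes with iron, and DESeq2 called Hspa5 and Dnajb9 alone. With selenite, 1 gene was called lower (Ern1) and 0 higher, against 9.67% lower and 7.89% higher of all genes. With manganese, 1 was called lower (Hsp90b1) and 0 higher, against 15.1% lower and 2.09% higher of all genes. DESeq2 called the same gene in each of these comparisons and none higher. At an unadjusted p under 0.05 edgeR had 0 genes higher and 2 lower with selenite, and 2 higher and 3 lower with manganese. With zinc, 0 of the 10 were called, against 2.9% higher and 1.55% lower of all genes. DESeq2 also called 0 with zinc, and 1 was lower at an unadjusted p under 0.05 by edgeR. Between untreated LSKO and WT cells 0 were called by edgeR and 0 by DESeq2, against 6.74% higher and 3.7% lower of all genes, and an unadjusted p under 0.05 was reached by 2 genes in each direction. Over all genes tested, an unadjusted p under 0.05 was reached in either direction by 28.2% with iron and 39.7% with selenite. That share was 30.4% with manganese, 18.6% with zinc and 28.8% in untreated LSKO against WT cells. The median log2 fold change of the 10 was 0.36 with iron, -0.02 with selenite, 0.05 with manganese, -0.13 with zinc and 0.04 in untreated LSKO against WT cells, while the median of all genes lay between -0.02 and 0.00 in these comparisons. For selenite and manganese, the share of the 10 called was near that of all genes.

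**Figure D3:**
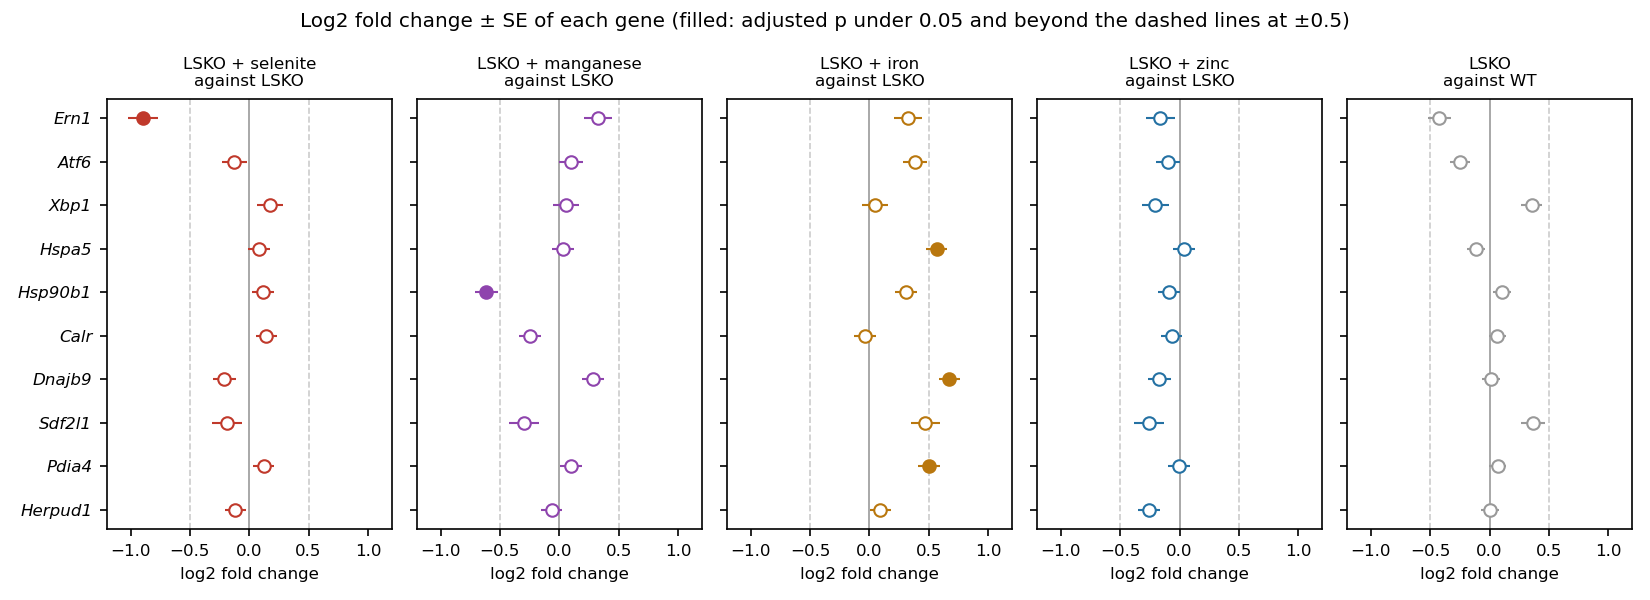
Log2 fold change of each gene with its standard error in the 4 metal comparisons against untreated LSKO cells and in untreated LSKO against WT cells. Filled points passed both thresholds, and dashed lines mark 0.5 in size. Filled points are Ern1 with selenite (-0.90), Hsp90b1 with manganese (-0.62), and Hspa5 (0.57), Dnajb9 (0.67) and Pdia4 (0.50) with iron.

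Among the sensors, Ern1 fell with selenite while Atf6 and the third sensor gene did not pass the test. Ern1 (ENSMUSG00000020715, chr11:106394650-106487852, minus strand) encodes the kinase and ribonuclease that cuts Xbp1 mRNA. It had 27.3 normalized CPM with selenite (552 reads), 63.5 with manganese, 63.5 with iron and 45.3 with zinc, against 55.2 and 46.5 in untreated LSKO cells and 66.1 and 70.0 in WT cells. The selenite library lay below all 7 others, the manganese and iron libraries lay between the LSKO and WT pairs, and the zinc library lay just under both LSKO libraries. The log2 fold change with selenite was -0.90 (SE 0.13, adjusted p = 0.0011 by edgeR's quasi-likelihood test), or 0.537 of the untreated level. Against WT cells the value was -1.32 (adjusted p = 8.72e-05 by the same test). Its longest transcript has 6946 bases, and after a correction of each library for transcript length and GC content the log2 fold change with selenite was -0.53 (adjusted p = 0.012), smaller in size and still called. Without LSKO replicate 1 it was -0.82 and without LSKO replicate 2 -1.05.

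Atf6 (ENSMUSG00000026663, chr1:170704674-170867771, minus strand), whose product becomes a transcription factor after it is cut in the Golgi, had 158 normalized CPM with selenite, 184 with manganese, 225 with iron and 161 with zinc, against 184 and 160 in untreated LSKO cells and 202 and 207 in WT cells. The iron library was above all others, and selenite lay just under the lower LSKO library. With iron the log2 fold change was 0.39 (SE 0.10, adjusted p = 0.032 by edgeR), past the p threshold and short of the fold threshold. Against WT cells it was 0.14 (adjusted p = 0.40), so the distance of the iron library from the controls depended on which untreated cells were used. Xbp1 (ENSMUSG00000020484, chr11:5520659-5525893, plus strand), the factor made active by IRE1, had 267 normalized CPM with selenite, 246 with manganese, 244 with iron and 206 with zinc, against 216 and 257 in untreated LSKO cells and 183 and 187 in WT cells. All 6 LSKO libraries, treated or not, lay above both WT libraries. None of the 4 metals changed Xbp1 past the thresholds against untreated LSKO cells, with log2 fold changes between -0.20 with zinc and 0.17 with selenite. Against WT cells the selenite library was higher by 0.53 (adjusted p = 0.0039 by edgeR), a value past both thresholds. Eif2ak3, the gene of PERK, falls outside the rule for named genes and is given for its role. It had 22.5 normalized CPM with selenite, 25.0 with manganese, 33.7 with iron and 28.5 with zinc, against 27.0 and 28.2 in untreated LSKO cells and 25.0 and 31.5 in WT cells, and it was called with none of the metals.

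Of the 5 lumenal chaperones and co-chaperones, 4 were highest with iron (Hspa5, Dnajb9, Sdf2l1 and Hsp90b1), and Calr was highest with selenite. Hspa5 (ENSMUSG00000026864, chr2:34771970-34777547, plus strand) had 3146 normalized CPM with selenite, 3039.9 with manganese, 4398 with iron and 3045 with zinc, against 2978 and 2965 in untreated LSKO cells and 3282 and 3143 in WT cells. The 7 libraries without iron spanned 2965 to 3282, and the iron library lay above that span. The log2 fold change with iron was 0.57 (SE 0.09, adjusted p = 0.0031 by edgeR's quasi-likelihood test), or 1.48-fold. It ranged from 0.53 to 0.57 and stayed called over 12 alternatives of processing against untreated LSKO cells. Against WT cells it was 0.45 (adjusted p = 0.0089), under the fold threshold. With selenite, manganese and zinc the values were 0.08, 0.03 and 0.04, each with an SE of 0.09.

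Dnajb9 (ENSMUSG00000014905, chr12:44205559-44210326, minus strand) encodes ERdj4, a co-chaperone that brings BiP to IRE1 and to misfolded chains. It had 144 normalized CPM with selenite, 204 with manganese, 267 with iron and 148 with zinc, against 167 and 167 in untreated LSKO cells and 173 and 159 in WT cells. Iron was highest, manganese also lay above the 4 untreated libraries, and selenite and zinc lay below them. The log2 fold change was 0.67 with iron (SE 0.09, adjusted p = 0.0012 by edgeR), and 0.68 against WT cells (adjusted p = 0.0011). With manganese it was 0.29 (SE 0.09, adjusted p = 0.052), short of both thresholds. With selenite it was -0.21 (SE 0.10, adjusted p = 0.13), and -0.60 (adjusted p = 0.0013) after the correction for length and GC content, which made it a call.

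Sdf2l1 (ENSMUSG00000022769, chr16:17130138-17132383, minus strand), a partner of BiP and its co-chaperones, had 44.9 normalized CPM with selenite, 41.6 with manganese, 70.8 with iron and 42.8 with zinc, against 46.7 and 55.4 in untreated LSKO cells and 38.3 and 41.1 in WT cells. Iron was again above all others, and the LSKO pair lay above the WT pair. The log2 fold change with iron was 0.47 (SE 0.12, adjusted p = 0.030 by edgeR), short of the fold threshold, and 0.83 against WT cells (adjusted p = 0.0017), past it. Without LSKO replicate 2, the higher of the untreated LSKO pair, it was 0.59 (adjusted p = 0.00043) and called.

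Hsp90b1 (ENSMUSG00000020048, chr10:86690209-86705509, minus strand) had 874 normalized CPM with selenite, 525 with manganese, 998 with iron and 758 with zinc, against 773 and 837 in untreated LSKO cells and 759 and 737 in WT cells. The manganese library was far below the other 7, and iron was highest. The log2 fold change was -0.62 with manganese (SE 0.10, adjusted p = 0.00063 by edgeR), or 0.652 of the untreated level, and 0.31 with iron (SE 0.09, adjusted p = 0.052). Of the exon bases of Hsp90b1, 10.3% (415 of 4032) lie over exons of the opposite strand, where a count without strand cannot assign a read. Reads that fitted more than one gene made up 5.19% of the manganese library and 1.25% to 1.49% of the others. With every gene of such overlap left out of the table, 136 of 9900 genes were called with manganese, against 2654 of 15468 with them. The part of this overlap in the Hsp90b1 value was not tested. Calr (ENSMUSG00000003814, chr8:84841850-84846934, minus strand), with no such overlap, had 918 normalized CPM with selenite, 699 with manganese, 808 with iron and 793 with zinc, against 814 and 847 in untreated LSKO cells and 805 and 781 in WT cells. Manganese was again lowest, with a log2 fold change of -0.25 (SE 0.09, adjusted p = 0.085). Selenite was highest at 0.14 (SE 0.09, adjusted p = 0.26), and iron, at -0.04, lay within the untreated libraries.

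Pdia4 and Herpud1 stand for disulfide formation and for ER-associated degradation. Pdia4 (ENSMUSG00000025823, chr6:47796141-47813430, minus strand), a protein disulfide isomerase, had 192 normalized CPM with selenite, 189 with manganese, 250.4 with iron and 176 with zinc, against 171 and 183 in untreated LSKO cells and 171 and 167 in WT cells. Iron lay above all other libraries, and the other 7 spanned 167 to 192. The log2 fold change with iron was 0.50 (SE 0.09, adjusted p = 0.0057 by edgeR), which only just passed the fold threshold. It was called in 5 of 12 alternatives, with values from 0.43 to 0.54. Without LSKO replicate 1 it was 0.43 and without either WT library 0.48, all under the fold threshold, and against WT cells it was 0.57 (adjusted p = 0.0026). Herpud1 (ENSMUSG00000031770, chr8:94386438-94395377, plus strand), a membrane protein of the degradation complex, had 173 normalized CPM with selenite, 180 with manganese, 200.3 with iron and 157 with zinc, against 186 and 190.0 in untreated LSKO cells and 184 and 191 in WT cells. Its values differed least of the 10. The iron library was above the untreated libraries by a log2 fold change of 0.09 (SE 0.09, adjusted p = 0.53), and zinc was below them at -0.26 (SE 0.09, adjusted p = 0.15).

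The iron values of the genes whose elements are printed above differed among themselves. Of the 4 genes with an ERSE or ERSE-II in the window, Hspa5 was called with iron, Hsp90b1 had a log2 fold change of 0.31, Herpud1 of 0.09 and Calr of -0.04. Dnajb9 and Pdia4, both called, had none of the 3 elements in their windows, which says only that these letters are absent there.

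Markers of other liver cells moved with some of these results. In the iron library the summed level of 6 endothelial markers was 76.5 normalized CPM, against 147 and 117 in untreated LSKO cells and 177 and 183 in WT cells, and 5 of the 6 were called lower with iron. The 8 hepatocyte markers were led by Alb, with 0 of 8 under 1 normalized CPM, and summed to 30069.7 with iron, against 28023 and 35648 in untreated LSKO cells. The 9 macrophage markers summed to 321 with iron, against 246 and 279 in untreated LSKO cells, with Timd4 under 1 normalized CPM, while 0 of the 9 were called higher and 2 lower. With iron the 6 stellate cell markers summed to 6.48, against 18.8 and 15.6 in untreated LSKO cells, and the 5 cholangiocyte markers to 25.9, against 65.9 and 49.3 in untreated LSKO cells, with 2 of each list called lower. In the selenite library the hepatocyte markers summed to 48415, against 28023 and 35648 in untreated LSKO cells, with 4 of 8 called higher. With selenite 3 of 6 endothelial and 2 of 6 stellate cell markers were called lower. Higher calls with selenite were also 2 of 9 macrophage markers and 1 of 5 cholangiocyte markers. In the manganese library the macrophage markers summed to 472, above all other libraries, with 3 of 9 called higher and 1 lower. Of all genes tested, 3.8% were called higher and 4.89% lower with iron, and 7.89% higher and 9.67% lower with selenite. With manganese the shares were 2.09% higher and 15.1% lower. The part of these marker shifts in the values of the 10 genes was not tested.

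The selenite, iron and zinc libraries are of the same kind in their unaligned reads, and were also compared with one another. Selenite was set against the mean of iron and zinc, and in the fit without corrections Ern1 alone was called, lower by a log2 fold change of -0.98 (SE 0.13, adjusted p = 0.0013 by edgeR), with 0 genes higher, against 8.35% lower and 7.53% higher of all genes. At an unadjusted p under 0.05, 1 gene was higher and 5 lower, where 37.5% of all genes tested reached it in either direction. DESeq2 called 1 gene, Ern1. After the correction for length and GC content Ern1 was at -0.63 (adjusted p = 0.0092), still called. Dnajb9 was at -0.46 (adjusted p = 0.0074), short of the fold threshold, and after the correction at -0.81 (adjusted p = 0.0013), which made it a second call. The lower Dnajb9 in this comparison includes the high iron library, with 267 normalized CPM against 144 with selenite and 148 with zinc. Against untreated LSKO cells selenite gave -0.21 for Dnajb9 (SE 0.10, adjusted p = 0.13 by edgeR), and -0.60 after the correction. Iron was set against the mean of selenite and zinc, a comparison chosen after the iron values were seen and which holds the same 3 libraries. In it 4 of the 10 genes were called higher and 0 lower, against 8.68% higher and 9.43% lower of all genes. An unadjusted p under 0.05 was reached by 8 higher and 0 lower genes, and by 39.0% of all genes tested in either direction. DESeq2 called 4 higher and 0 lower. The 4 were Dnajb9 (0.87, SE 0.09), Ern1 (0.85, SE 0.12), Sdf2l1 (0.69, SE 0.12) and Hspa5 (0.51, SE 0.09), with adjusted p = 0.00033, 0.00095, 0.0028 and 0.0030 by edgeR. Atf6 (0.50) and Pdia4 (0.44) came next, with adjusted p = 0.0057 and 0.0058. The higher Ern1 in this comparison includes the low selenite library, and against untreated LSKO cells iron gave 0.32 (SE 0.12, adjusted p = 0.10).

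Between untreated LSKO and WT cells none of the 10 genes passed both thresholds. Ern1 was lower by a log2 fold change of -0.42 (SE 0.10, adjusted p = 0.015 by edgeR), Xbp1 was higher by 0.35 (SE 0.09, adjusted p = 0.025) and Sdf2l1 by 0.36 (SE 0.10, adjusted p = 0.035). All 3 were short of the fold threshold. Means were 50.8 ± 6.1 normalized CPM in untreated LSKO cells and 68.1 ± 2.8 in WT cells for Ern1 (SD, n = 2 each). They were 236.5 ± 29.3 in untreated LSKO cells and 185 ± 2.7 in WT cells for Xbp1, and 51.0 ± 6.1 in untreated LSKO cells and 39.7 ± 2.0 in WT cells for Sdf2l1 (SD, n = 2 each). Without LSKO replicate 1 all 3 passed the fold threshold, with -0.52, 0.50 and 0.51, and the number called was 3 instead of 0. The other genes lay between -0.25 for Atf6 and 0.11 for Hsp90b1. All 8 hepatocyte markers were called higher in untreated LSKO cells, against 6.74% of all genes. They summed to 28023 and 35648 normalized CPM in untreated LSKO cells, against 20192 and 19163 in WT cells. The part of this difference in the values above was not tested. The mean of the iron, selenite and zinc libraries was also set against WT cells, and 1 gene was called lower and 0 higher, against 6.93% lower and 7.12% higher of all genes. That gene was Ern1, at -0.67 (SE 0.09, adjusted p = 0.00053 by edgeR), and after the correction for length and GC content it was at -0.47 and no longer called. An unadjusted p under 0.05 was reached by 4 higher and 2 lower genes in this comparison, and by 39.4% of all genes tested in either direction. DESeq2 called 1 gene, Ern1.

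Another 65 genes of the ER, in 6 lists, were all tested and set beside the 10. With iron 4 of the 65 were called higher and 0 lower, with selenite 2 higher and 7 lower, with manganese 2 higher and 1 lower, with zinc 0 higher and 1 lower, and in untreated LSKO against WT cells 2 higher and 3 lower. Over all genes tested, 3.8% were called higher and 4.89% lower with iron, and 7.89% higher and 9.67% lower with selenite. The shares were 2.09% higher and 15.1% lower with manganese, and 2.9% higher and 1.55% lower with zinc. In untreated LSKO against WT cells they were 6.74% higher and 3.7% lower. The count of lower calls with selenite was near its share. DESeq2 called 4 higher and 0 lower with iron, 1 higher and 7 lower with selenite, and 2 higher and 1 lower with manganese. It called 0 higher and 1 lower with zinc, and 1 higher and 3 lower in untreated LSKO against WT cells. With iron, 13 higher and 8 lower of the 65 reached an unadjusted p under 0.05 by edgeR. The counts were 16 higher and 18 lower with selenite, 7 higher and 6 lower with manganese, and 2 higher and 9 lower with zinc. In untreated LSKO against WT cells they were 8 higher and 5 lower. Over all genes tested, 28.2% had such an unadjusted p with iron, in either direction, and 39.7% with selenite. That share was 30.4% with manganese, 18.6% with zinc and 28.8% in untreated LSKO against WT cells. The PERK branch list had the highest median of the 6 lists with iron. Against untreated LSKO cells all 7 genes had a positive log2 fold change with iron, with a median of 0.37, and 2 were called higher. Manganese gave 6 of the 7 positive, with a median of 0.35, and 2 called higher (Ppp1r15a and Chac1), against 2.09% of all genes. In untreated LSKO against WT cells 6 of the 7 were negative and 3 were called lower, against 3.7% of all genes. Both WT libraries lay above the iron library for Ddit3 (103 normalized CPM with iron) and Chac1 (45.7), and below it for the other genes of the list. Ppp1r15a, which encodes the phosphatase subunit GADD34 that ends the translation block, had 57.6 normalized CPM with selenite, 127 with manganese, 169 with iron and 81.2 with zinc, against 89.5 and 70.6 in untreated LSKO cells and 115 and 119 in WT cells. It rose with iron by a log2 fold change of 1.08 (adjusted p = 0.00040 by edgeR) and with manganese by 0.67 (adjusted p = 0.0023), and both libraries lay above all 4 untreated ones while selenite lay below them. Trib3, a pseudokinase induced by ATF4 and CHOP, had 232 normalized CPM with iron against 150 and 119 in untreated LSKO cells and 179 and 177 in WT cells, a log2 fold change of 0.79 against untreated LSKO cells (adjusted p = 0.0024). Trib3 had 94.4 normalized CPM with selenite and was called lower there, at -0.51 against untreated LSKO cells (adjusted p = 0.016 by edgeR). With iron against the mean of selenite and zinc the values were 1.30 for Ppp1r15a and 1.08 for Trib3. These values include the selenite library, which lay below all untreated libraries for both genes. Ddit3, the gene of CHOP, fell with selenite to 44.8 normalized CPM, against 83.8 and 65.7 in untreated LSKO cells and 126 and 117 in WT cells, a log2 fold change of -0.74 against untreated LSKO cells (adjusted p = 0.0044) and of -0.86 against the mean of iron and zinc. It was lower in untreated LSKO than in WT cells by -0.70 (adjusted p = 0.0016), as were Chac1 by -0.65 and Ppp1r15a by -0.55.

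Among 14 other ER chaperones and cofactors, 2 were called higher with iron, against 3.8% of all genes. The large chaperone Hyou1, which exchanges nucleotide on BiP, had 104 normalized CPM with selenite, 148 with manganese, 231 with iron and 127 with zinc, against 147 and 152 in untreated LSKO cells and 131 and 168 in WT cells. It rose with iron by a log2 fold change of 0.62 (adjusted p = 0.011 by edgeR) and fell with selenite by 0.53 (adjusted p = 0.017), and both libraries lay outside the range of the untreated ones. Creld2, an ER stress gene with disulfide isomerase activity, had 78.7 normalized CPM with iron against 52.6 and 57.6 in untreated LSKO cells and 50.4 and 49.2 in WT cells, a log2 fold change of 0.51 (adjusted p = 0.0094). With iron against the mean of selenite and zinc the values were 1.01 for Hyou1 and 0.62 for Creld2. These values include the selenite library, which lay below all untreated libraries for both genes. Manf, a secreted ER stress protein, had 127 normalized CPM with manganese against 196 and 225 in untreated LSKO cells and 181 and 170.3 in WT cells, a log2 fold change of -0.73 (adjusted p = 0.00043). As for Hsp90b1, part of the Manf exons, 8.85% of their bases, lie over exons of the opposite strand. Of 10 other oxidoreductases, edgeR and DESeq2 called 0 with iron and 0 with selenite against untreated LSKO cells, where 3 reached an unadjusted p under 0.05 with each metal by edgeR. Over all genes tested, 28.2% reached it with iron and 39.7% with selenite. The oxidoreductase of smallest p with selenite, Prdx4, had a log2 fold change of 0.43 (SE 0.11, adjusted p = 0.014 by edgeR), short of the fold threshold.

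With selenite 3 of 8 other sensors, proteases and factors fell, against 9.67% of all genes, with a list median of -0.35. Wfs1, an ER membrane protein of calcium balance, had 9.93 normalized CPM with selenite against 18.8 and 18.9 in untreated LSKO cells and 17.8 and 21.6 in WT cells, a log2 fold change of -0.92 (adjusted p = 0.0036 by edgeR). Mbtps1, the Golgi protease that cuts ATF6, changed by -0.56 (adjusted p = 0.0076) and Atf6b, a relative of ATF6, by -0.51 (adjusted p = 0.013). Against the mean of iron and zinc the selenite values were -0.81 for Wfs1, -0.51 for Mbtps1 and -0.58 for Atf6b. Of 14 other ER-associated degradation genes, 1 was called lower with selenite and 0 higher, near the 9.67% lower of all genes. It was Syvn1, the ubiquitin ligase HRD1, with a log2 fold change of -0.64 (adjusted p = 0.018 by edgeR). Against the mean of iron and zinc Syvn1 was at -0.73. In that comparison 3 of the 14 were called lower, against 8.35% of all genes. The translocon and signal peptidase list went the other way, with 10 of 12 log2 fold changes positive with selenite and a median of 0.26, and 10 of 12 negative with iron and a median of -0.19. After the length and GC correction 1386 of all genes were called with selenite, against 2717 before it. The part of transcript length and GC content in the values of these other ER lists was not tested. Sec61g (0.57) and Sec61b (0.52), small subunits of the channel through which new chains enter the ER, were called higher with selenite by edgeR. Their adjusted p were 0.0061 and 0.0036 by that test, while DESeq2 called 1 gene of the list higher. Of all genes tested, 7.89% were called higher with selenite by edgeR. Against the mean of iron and zinc the values were 0.69 for Sec61g and 0.70 for Sec61b. Creb3l3, a liver factor cut like ATF6, was called lower with zinc, at 13.7 normalized CPM against 23.5 and 37.5 in untreated LSKO cells and 11.9 and 12.5 in WT cells. Its log2 fold change was -1.16 with zinc (adjusted p = 0.017) and 1.33 in untreated LSKO against WT cells (adjusted p = 0.00088), so the zinc library stood near the WT pair.

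**Figure D4:**
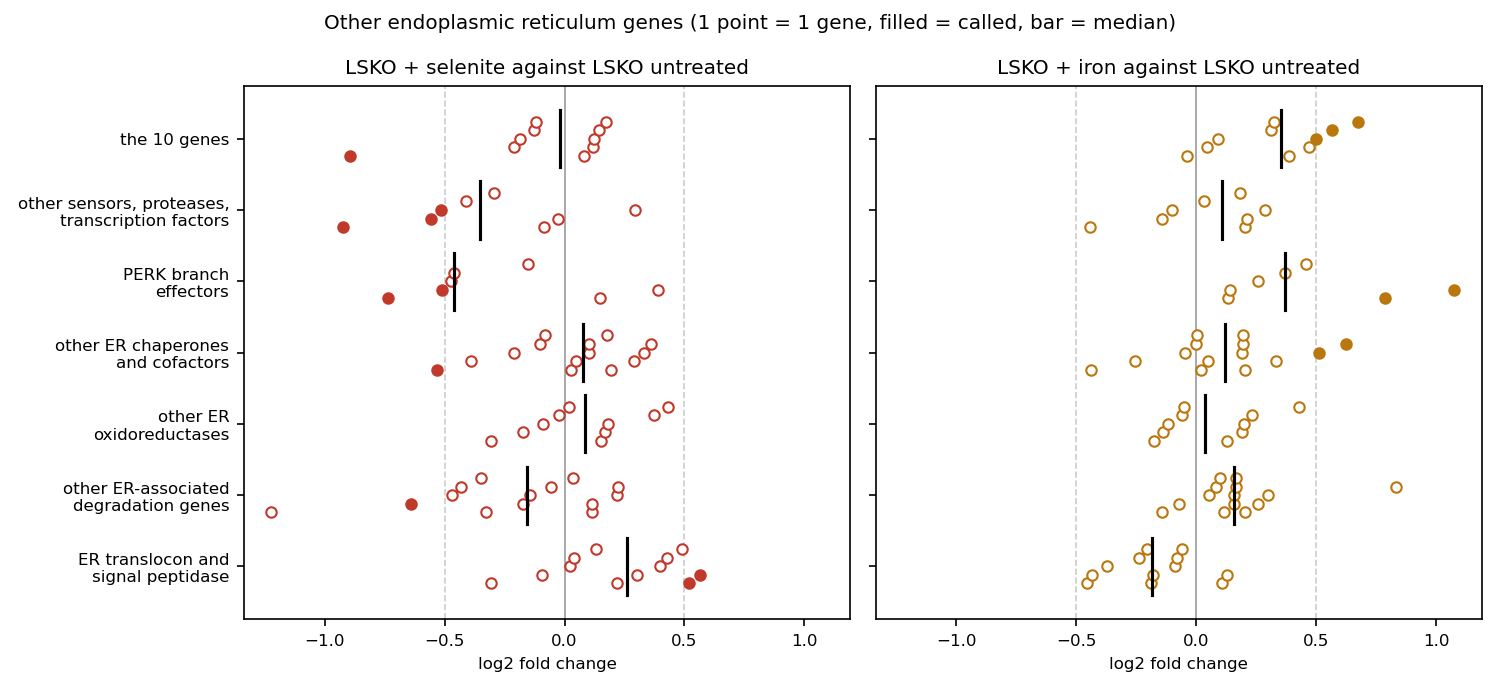
Log2 fold changes with selenite (left) and iron (right) against untreated LSKO cells of the 10 genes and of 65 other ER genes in 6 lists, with 1 point a gene, filled where called, a bar at the median and dashed lines at 0.5 in size. With iron the medians of the 10 genes (0.36) and of the PERK branch (0.37) lie highest and that of the translocon list (-0.19) lowest, while with selenite the translocon list is highest (0.26) and the PERK branch lowest (-0.46).

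Across the 8 libraries, the pattern of Hspa5 was set beside that of 8588 protein-coding genes whose mean reached 10 normalized CPM, by the root mean square difference of their log2 levels after centring. The 5 nearest were Fbxo38 (0.049), Sdsl (0.056), Fam185a (0.057), Zbtb22 (0.058) and Thumpd1 (0.066), where the own spread of Hspa5 was 0.18 and the median distance 0.25. Fbxo38, the nearest, had 64.5 normalized CPM with selenite, 66.8 with manganese, 90.0 with iron and 68.4 with zinc, against 64.8 and 63.1 in untreated LSKO cells and 70.9 and 70.4 in WT cells. Of the other 9 genes, Pdia4 was nearest to Hspa5, at rank 49 (0.090), and Ern1 farthest, at rank 7413 (0.41). The points share 8 libraries, and the likeness is a description.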

How the data were processed

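The authors deposited raw, unnormalized counts of reads for each gene, made with Trimmomatic, hisat2 and HTSeq-Count on GRCm38 according to the study and the submitters' processing notes. How strand was set in the counting is not given in the sources used here. The 55450 identifiers were matched to GENCODE M21. HTSeq summary rows, given in the report, were left out of library sizes.

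A gene was tested when its counts over the 8 libraries reached 80 in sum, which left 15468 genes, 12442 of them protein-coding. In R 4.3.3, edgeR 4.0.16 fitted 6 groups with TMM factors (0.867 to 1.06) and the quasi-likelihood F-test, with 2 residual degrees of freedom and a prior of 8.53. Thresholds were an adjusted p of 0.05 (Benjamini-Hochberg) and a log2 fold change of 0.5. The SE was taken from F and the size of the log2 fold change. Duplicate libraries were looked for by a chi-square over genes, which per degree of freedom was 5.98 for WT and 13.3 for LSKO, so none was found. The fit was tested on simulated data.

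The 10 genes and the other lists were chosen with earlier results of these data known. Named genes are the 10, Slc39a8, up to 4 called genes of each other list with the largest change and a mean of at least 10 normalized CPM (or, with no call, the one of smallest p), and the 5 nearest to Hspa5. Of the genes this rule picked, Sel1l, Spcs1 and Ssr4 are not described, and not every call of the others is given. Eif2ak3 falls outside this rule and was chosen for its role. One listed gene, Selenos, was matched by another symbol. Where Ddit3 had 2 identifiers, the one with reads was used.

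Alternatives were DESeq2 1.42.0, median-ratio size factors, no filter, filterByExpr, no fold threshold, each untreated library left out, a length and GC correction (MASS 7.3.60.0.1), opposite-strand overlaps left out, a replicate block, and, chosen after seeing the data, a crossed block, the manganese library left out and WT as the control.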

Additional observations from a re-analysis of the deposited data

Results flagged for a closer look

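In all, 5 values were picked out because a metal differed from other metals by a test of the difference itself. Ern1 was lower with selenite than with the mean of iron and zinc, by a log2 fold change of -0.98. With iron against the mean of selenite and zinc, Ern1 was higher by 0.85, Hspa5 by 0.51, Dnajb9 by 0.87 and Sdf2l1 by 0.69. The 2 comparisons hold the same 3 libraries, with 1 library a metal, and the second was chosen after the iron values were seen. Each of the 5 stayed called in every alternative that could be run for it, the Ern1 value with selenite at -0.63 after the length and GC correction. The groups of 1 or 2 libraries are too small for a search for single libraries that stand apart.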

How the results depend on the processing

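Over 80 log2 fold changes of the 10 genes and 16 alternatives, 994 values were computed, of which 959 kept their side of the thresholds, 9 lost it, 26 gained it and 0 reversed. The number of the 10 genes called moved by over 1.5 times as follows, from the alternative's own construction where a threshold or control was changed, and otherwise with a cause that was not tested. Without a fold threshold it was 5 with iron (3 before), 3 in LSKO against WT (0), 2 for selenite against iron and zinc (1), 8 for iron against selenite and zinc (4) and 5 for the mean of 3 metals against WT (1). With the length and GC correction it was 2 with selenite (1), 2 for selenite against iron and zinc (1) and 0 for the mean of 3 metals against WT (1). With WT as the control it was 2 with selenite (Ern1 and Xbp1) and 1 with zinc (Ern1, -0.59). With opposite-strand overlaps left out it was 0 with manganese (1), since Hsp90b1 was then not in the table. Leaving out 1 untreated library gave 0 to 3 in LSKO against WT, with 3 only without LSKO replicate 1. With iron it was otherwise 2 to 4 (2 under DESeq2, median-ratio factors, no filter, the length and GC correction, overlaps left out, and without LSKO replicate 1 or either WT library, and 4 without LSKO replicate 2). For iron against selenite and zinc it was 5 under filterByExpr and the length and GC correction.

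The replicate numbers of LSKO and WT gave replicate differences that correlated at -0.12 over 10882 genes. Whether libraries of the same number shared a day or culture is not stated, and 1 difference per genotype cannot decide it. In the 4 untreated libraries, 0 of the 10 genes were called with the replicate block, 0 without it and 0 with crossed pairs.

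Calls over all genes moved by over 1.5 times as follows. DESeq2 gave 1649 with selenite (2717 by edgeR), 750 with iron (1345), 415 with zinc (688) and 1039 in LSKO against WT (1615). It gave 1529 for selenite against iron and zinc (2456), 1722 for iron against selenite and zinc (2801) and 1371 for the mean of 3 metals against WT (2173). The length and GC correction gave 1386, 1096 and 1818 for selenite, selenite against iron and zinc, and iron against selenite and zinc. WT as the control gave 4137 with selenite and 1500 with zinc. No fold threshold gave 4132, 3715 and 4169 for selenite, selenite against iron and zinc, and the mean of 3 metals against WT. No filter gave 1164 with zinc, of 31088 genes tested. With opposite-strand overlaps left out, 136 were called with manganese (2654). The same setting gave 1519 when selenite was set against iron and zinc (2456), and 1808 when iron was set against selenite and zinc (2801). It tested 9900 genes instead of 15468, and the share of tested genes called changed little in these 2 comparisons. In LSKO against WT, leaving out WT replicate 1, WT replicate 2 or LSKO replicate 2 gave 750, 808 and 1005, and without WT replicate 2 the mean of 3 metals against WT gave 1048. At 1 library a metal, the biological variation of the metals themselves cannot be estimated.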
